A study of Mus musculus with 18 samples.

Results

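Krt8, Krt18, Krt19 and Krt20 encode the keratins of simple epithelia, and their mRNAs carried 67 of the 17998 cytosine positions that were called as 5-methylcytosine (m5C) in exons of mouse mRNAs, out of 25890 called positions in all. The members were chosen by gene name: every called position on the sense strand of an exon of a RefSeq transcript of these 4 genes was taken, in the mm10 genome build. Krt19 held 29 of the 67 sites, Krt20 22, Krt8 15 and Krt18 1. No site lay in an intron or on the antisense strand of the 4 genes.

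The samples are RNA-bisulfite sequencing libraries from cultures labelled as cortical neurons of C57BL/6 mouse fetuses at embryonic day 18. The control group had no deprivation. The other groups had oxygen-glucose deprivation for 1.5 h or 3 h followed by 24 h of reoxygenation (OGD/R 1.5 h and OGD/R 3 h), a culture model of ischemia and reperfusion, and the labels name no allele or transgene in any group. Each group had 3 libraries with a deposited list of sites, 9 in all, and 9 mock libraries were not analysed here. The study describes the 3 libraries of a group as replicates of a sequencing pool, and nothing ties them to separate animals or cultures, so they were counted as 1 sample, SDs give only the spread between libraries, and no p-value was computed.

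Keratins are the intermediate filaments of epithelial cells. A type II keratin such as Krt8 pairs with a type I keratin such as Krt18, Krt19 or Krt20, and the pairs assemble into filaments that are anchored at desmosomes. Krt8, Krt18 and Krt19 are typical of simple epithelia, and Krt20 is best known from mature cells of the intestinal epithelium. Bisulfite turns unmethylated cytosines into uracils, so a cytosine that still reads as C is a candidate m5C.

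For Krt8, Krt19 and Krt20 the 3 sites called in most libraries are printed here, with ties broken by the summed score. The only Krt18 site is printed too. The Krt20 site at chr11:99437898 was added as part of a pair of paralog sites compared below. Each line gives 21 nt of the mRNA strand, 5′ to 3′, read from mm10 and written as DNA, with the called cytosine in capitals. The genes Krt8, Krt19 and Krt20 lie on the minus strand and Krt18 on the plus strand.
Krt8 exon 2, chr15:102001567-102001587: caagtggagcCtgttgcagca
Krt8 exon 2, chr15:102001548-102001568: cagcagaagaCgtcgaggagc
Krt8 exon 6, chr15:101998459-101998479: atgatctgcgCcgcacaaaga
Krt18 exon 1, chr15:102028552-102028572: agcctggaaaCtgagaacagg
Krt19 exon 1, chr11:100145632-100145652: gggaccctggCtgtgtctgat
Krt19 exon 1, chr11:100145626-100145646: ctggctgtgtCtgatgggctg
Krt19 exon 4, chr11:100141642-100141662: aggtgggtggCcaggtcagtg
Krt20 exon 1, chr11:99437993-99438013: aggaaggggaCtgtgcagcgt
Krt20 exon 1, chr11:99437888-99437908: ggtgatctctCcaacggatcg
Krt20 exon 8, chr11:99429004-99429024: aggtcgtgtcCtctgaagtca
Krt20 exon 8, chr11:99429002-99429022: gtcgtgtcctCtgaagtcaag

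The deposited lists hold only called sites, with a score that rises with both the coverage and the methylation level of a site and reaches at most 1000. The read depth is unknown, so a cytosine without a call may have been unmethylated or not covered, and no interval could be given. Libraries held 5423 to 7772 sites, of which 3501 to 5229 were in mRNAs. In bulk RNA, fewer cells of a type and less RNA per cell cannot be told apart, and neither can be told from fewer methylated cytosines when only called sites are listed.

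The label of the cultures was set beside the sites of marker genes. None of 21 neuronal markers, Tubb3, Map2, Rbfox3 and Snap25 among them, had a site in any library, and of 11 glial markers only Aldh1l1 had any. In contrast, 24 of 25 markers of the intestinal epithelium carried sites, all but Phgr1. Of all 21000 annotated genes, 12.4% had a site in any library. That share includes genes that may not be expressed in the cultures, so it is no yardstick for markers of cells that are present. The lists were also chosen with earlier results of these data known, so the marker counts are a description only. The brush border protein Vil1 had 5, 6 and 5 sites in the control, 4, 7 and 6 in OGD/R 1.5 h and 16, 16 and 15 in OGD/R 3 h. The absence of a site does not show that an mRNA was absent, and the study stained its cultures for beta-III tubulin and GFAP to identify neurons and astrocytes. Whether the neuronal label holds was not tested. The intestinal markers with sites are not markers of cortical neurons.

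The first question was whether keratin mRNAs differed in their number of m5C sites after 3 h of deprivation. Keratin sites were more numerous in OGD/R 3 h than in the control, and this was carried by Krt19 and Krt20. The 4 genes together had 10, 10 and 8 sites in the control libraries and 29, 22 and 28 in the OGD/R 3 h libraries. The groups did not overlap, with means of 9.33 ± 1.15 and 26.3 ± 3.79 sites per library (SD, n = 3 libraries), a ratio of 2.82. The number of all mRNA sites also rose, by a ratio of 1.24. As a share of the mRNA sites of a library, keratin sites made up 0.237% ± 0.0237 in the control and 0.539% ± 0.0649 in OGD/R 3 h, again without overlap.

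Krt19 had 2, 2 and 0 sites in the control and 13, 8 and 14 in OGD/R 3 h. This was the widest gap among the members, with means of 1.33 ± 1.15 and 11.7 ± 3.21 sites per library, a ratio of 8.75 that became 5.25 without sites that have another within 10 nt and 5.5 for the union of the libraries. Krt20 had 5, 4 and 3 sites in the control and 9, 9 and 8 in OGD/R 3 h. Its groups did not overlap either, with means of 4 ± 1 and 8.67 ± 0.577 and a ratio of 2.17. Krt8 had 3, 4 and 5 sites in the control and 7, 5 and 6 in OGD/R 3 h. These groups met at 5 sites, in control replicate 3 and OGD/R 3 h replicate 2, and were apart when either of these libraries was left out. When sites with another site within 10 nt were left out, the direction of the Krt8 difference turned, from a log2 ratio of 0.58 to -0.74. Krt18, the usual partner of Krt8, had no site in any library of these groups.

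So 2 of the 3 keratin genes with a site in either group were higher in every OGD/R 3 h library, and 0 were lower. Over all 2258 genes with a site in either group, 18.5% were higher and 18.8% lower by the same rule. With 3 genes, the members' count cannot be set apart from that background. Among the 1441 genes with a site in OGD/R 3 h, ranked by their mean number of sites, Krt19 was 74, Krt20 122 and Krt8 189, where the median gene had 1.33 sites per library. In the control the ranks among 1807 genes were 782 for Krt19 and 233 for both Krt20 and Krt8.

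**Figure D1:**
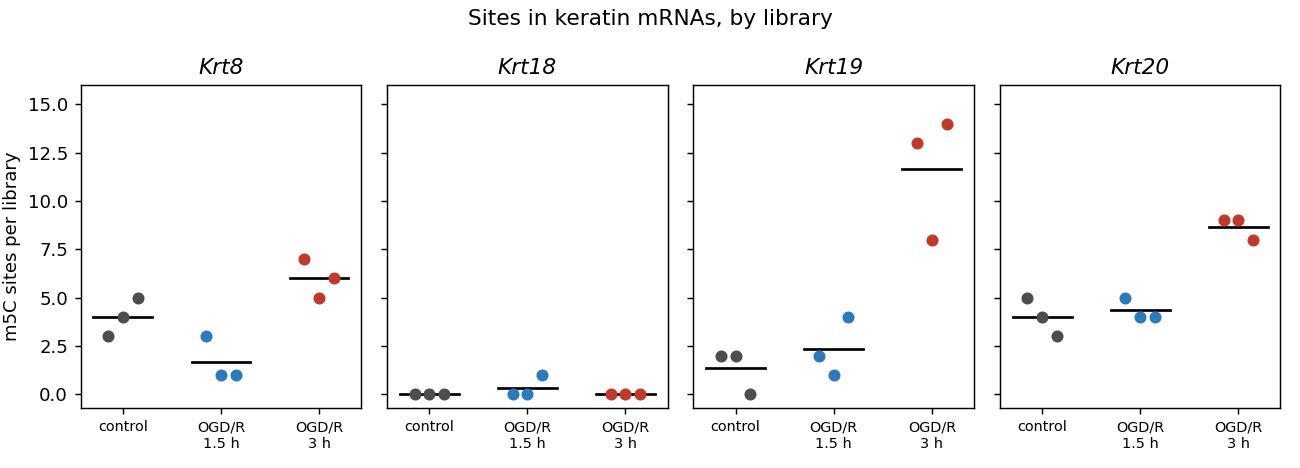
Number of m5C sites in each keratin mRNA (vertical axis) by group (horizontal axis); points are the 3 libraries of a group in the order of their replicate numbers and bars their mean. Krt19 rises from 0 to 2 sites per control library to 8 to 14 in OGD/R 3 h, Krt20 has 3 to 5 in the control and 8 or 9 in OGD/R 3 h, the Krt8 groups meet at 5, and Krt18 has 1 site in 1 library.

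**Figure D2:**
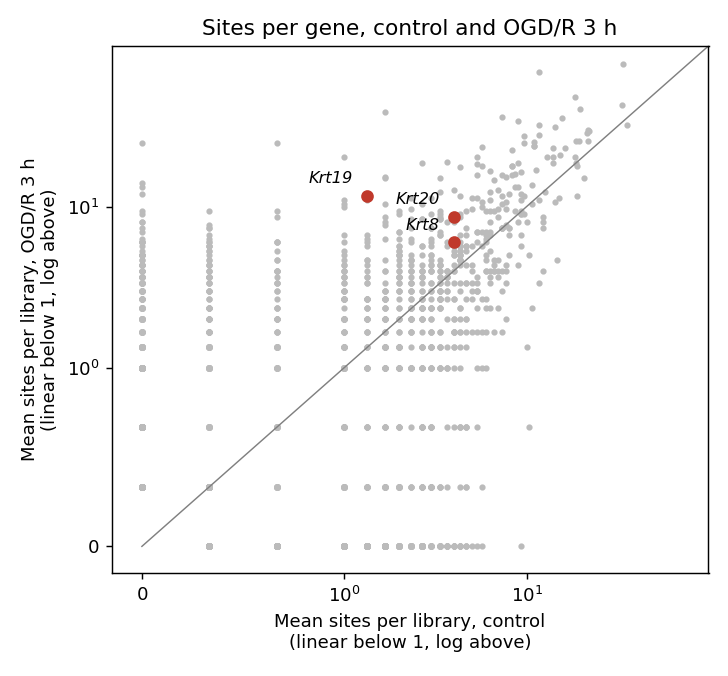
Mean number of sites per library in the control (horizontal axis) and OGD/R 3 h (vertical axis) for the 2258 genes with a site in either group; both axes are linear below 1 and logarithmic above, the line marks equal numbers and the keratins are in red. Krt19 lies at 1.33 and 11.7, Krt20 at 4 and 8.67 and Krt8 at 4 and 6, among many other genes on the same side of the line.

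The shorter deprivation was compared with the same control libraries. The total number of keratin sites after 1.5 h overlapped that of the control. The OGD/R 1.5 h libraries had 10, 6 and 10 keratin sites, with a mean of 8.67 ± 2.31 and a share of 0.241% ± 0.0626 of mRNA sites. Krt20 had 5, 4 and 4 sites, close to the control values of 5, 4 and 3. Krt19 had 2, 1 and 4 sites, which overlapped the control values of 2, 2 and 0. Krt8 had 3, 1 and 1 sites against 3, 4 and 5 in the control, and the groups met only at 3, in replicate 1 of each, so that they were apart with either of these libraries left out. The only Krt18 site of the series was called in OGD/R 1.5 h replicate 3. None of the 4 genes was higher or lower in every library, where 8.57% of 2322 genes were higher and 15.2% lower.

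Set directly against each other, OGD/R 3 h had more keratin sites than OGD/R 1.5 h, at 26.3 ± 3.79 against 8.67 ± 2.31 per library, a ratio of 3.04. Krt8, Krt19 and Krt20 were each higher in every OGD/R 3 h library, with ratios of 3.6, 5 and 2. The small numbers in OGD/R 1.5 h leave these ratios loose, since that of Krt8 was 6 without OGD/R 1.5 h replicate 1 and 2 without neighbouring sites, and that of Krt19 was 7.78 without OGD/R 1.5 h replicate 3 and 3 without neighbouring sites. The Krt20 ratio was 1.47 as a share of mRNA sites, 1.5 for sites called in all 3 libraries and 2.4 for the union of the libraries. Meanwhile, all mRNA sites had a ratio of 1.36. These 3 of 4 genes stand beside 19.8% of 2180 genes that were higher and 13.5% that were lower in this comparison.

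A second view of the same lists is which cytosines were called, and not only how many. Few keratin sites were shared between groups. The shares were below those of all mRNA sites, except for the control sites shared with OGD/R 3 h. The libraries of the control together held 17 keratin sites, those of OGD/R 1.5 h 14 and those of OGD/R 3 h 43. The control and OGD/R 3 h shared 4 sites, 23.5% of the control sites and 9.30% of the OGD/R 3 h sites, where all mRNA sites had 20.5% and 16.9%. The control and OGD/R 1.5 h shared 1 site, 5.88% and 7.14% of their sites, where all mRNA sites had 27.2% and 26.2%. OGD/R 1.5 h and OGD/R 3 h shared 2, 14.3% and 4.65%, where all mRNA sites had 21.4% and 18.3%. Of the 67 sites, 12 were called only in the control, 11 only in OGD/R 1.5 h, 37 only in OGD/R 3 h, 7 in 2 groups and 0 in all 3. A site was thus limited to 1 group in 89.6% of cases, against 80.8% of all mRNA sites.

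Within a group the libraries shared far more. Pairs of libraries of the same group had 33.3% to 60.0% of their joined keratin sites in common, and pairs from different groups 0% to 8.82%. For all mRNA sites these shares were 29.7% to 45.3% within groups and 6.50% to 10.8% between groups. At the same time, 35 of the 67 keratin sites, or 52.2%, were called in a single library, close to the 49.0% of all mRNA sites. A site called in a single library is limited to 1 group by necessity, so such calls fix part of the 89.6% and of the 80.8%.

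Sites present in all 3 libraries of a group were counted next. There were 5 such sites in the control, 5 in OGD/R 1.5 h and 15 in OGD/R 3 h. Of the 56 keratin sites of the control and OGD/R 3 h, 13 were in all OGD/R 3 h and no control library, where 15.0% of all mRNA sites were, and 3 were in all control and no OGD/R 3 h library, where 9.93% were. Of the 30 sites of the control and OGD/R 1.5 h, 5 were in all OGD/R 1.5 h and no control library, beside 6.26% of all mRNA sites, and 5 were in all control and no OGD/R 1.5 h library, beside 10.2%. Of the 55 sites of the OGD/R groups, 14 were in all libraries of OGD/R 3 h and none of OGD/R 1.5 h, beside 15.2%, and 5 were in all libraries of OGD/R 1.5 h and none of OGD/R 3 h, beside 6.66%.

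Krt8, the type II member, held its sites called in all 3 libraries of a group in exons 1, 2 and 6 of the 9 exons of NM_031170.2 (chr15:101996711-102004342, 1805 nt). Another, at chr15:101999440 in exon 4, was called in 3 libraries of different groups, at 173 in OGD/R 1.5 h replicate 1 and 131 and 134 in OGD/R 3 h replicates 1 and 2. The site in exon 2 at chr15:102001577, the first base of codon 131, was called in 5 libraries, with scores of 514 and 624 in control replicates 2 and 3 and of 180, 110 and 346 in OGD/R 3 h. The neighbouring cytosine at chr15:102001578 was called only in OGD/R 3 h, with scores of 571, 490 and 341. So the pair was called together after 3 h of deprivation and the downstream cytosine alone in the control. Also in exon 2, chr15:102001558 had scores of 107, 119 and 150 in the control and 52 in OGD/R 3 h replicate 1 only.

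Exon 6 of Krt8 was called only in the OGD/R groups. Its site at chr15:101998469, in codon 307, had scores of 57 and 74 in OGD/R 1.5 h replicates 1 and 2 and of 340, 387 and 581 in OGD/R 3 h. The adjacent chr15:101998468 was called in OGD/R 3 h alone, at 153, 251 and 184. With 5 sites among 34 cytosines, exon 6 had the highest density in the gene. Exon 1, in contrast, had its 2 sites in the control only, of which chr15:102004075 was called in all 3 libraries, at 193, 69 and 18.

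Krt8 has a near-identical copy in mm10. The pseudogene Krt8-ps, at chr7:23357094-23358811, matched 1734 nt of the mRNA at 97.9% identity, and 14 of the 15 Krt8 sites had at least 90% identity there over 51 nt. The copy has a cytosine at all 15 positions, and 0 sites were called in it. Whether reads of the copy entered the Krt8 calls was not tested, so the Krt8 sites are less certain than those of Krt19, of which 1 of 29 had such a copy, and of Krt20, which had none. With the sites that have a copy left out, the ratio of all keratin sites between OGD/R 3 h and the control rose from a log2 value of 1.50 to 2.05.

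Krt18, the type I partner of Krt8 (NM_010664.2, chr15:102028216-102032026, plus strand, 7 exons), had 1 site among 382 cytosines. It lay at chr15:102028562 in exon 1, the second base of codon 95, with a score of 85. The density of 2.62 sites per 1000 cytosines was the lowest of the 4 genes, against 30.5 for Krt8, 49.2 for Krt20 and 73.6 for Krt19. This site also had a copy with at least 90% identity, in the pseudogene Gm5200 on chromosome 13, where 0 sites were called.

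Krt19, the shortest of the keratins and of type I (NM_008471.3, chr11:100140810-100145926, 6 exons), had 21 of its 29 sites in OGD/R 3 h alone. Of the 22 Krt19 sites of OGD/R 3 h, 14 were called in a single library of that group. The 5 called in all 3 libraries were 22.7%, beside 30.8% of all mRNA sites of OGD/R 3 h. Exon 1 held 15 sites, of which 13 were called in OGD/R 3 h, 1 in OGD/R 1.5 h and 1 in the control. Of the sites in all 3 OGD/R 3 h libraries, the highest summed scores were those of chr11:100145636 in codon 75, with 443, 102 and 86, and of chr11:100145642 in codon 73, with 104, 57 and 123, in the OGD/R 3 h libraries and in no other. The other 3 such sites, at codons 43, 51 and 61, scored 1 to 16.

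The sites of exon 4 of Krt19 were spread over the groups. This exon held 8 sites among 37 cytosines, the highest density of any keratin exon, with 3 called in the control, 2 in OGD/R 1.5 h and 4 in OGD/R 3 h. The only Krt19 site found in more than 1 group was chr11:100141652 in codon 234, with scores of 134 in control replicate 1 and 51 and 65 in OGD/R 3 h replicates 2 and 3. No Krt19 site was called in all 3 control libraries. In OGD/R 1.5 h the only such site was in codon 48 of exon 1, at scores of 2, 10 and 10.

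Krt20, a type I keratin (NM_023256.2, chr11:99428385-99438153, 8 exons), had 11 of its 22 sites in exon 1 and 5 in exon 8. The most recurrent keratin site of all was chr11:99438003 in codon 32, called in 6 libraries with scores of 12, 20 and 30 in the control and 17, 1 and 1 in OGD/R 3 h. In OGD/R 1.5 h it was not called, and another cytosine 5 nt downstream, in codon 34, was called in all 3 libraries at 57, 14 and 9. The strongest Krt20 site of OGD/R 3 h was chr11:99437849 in codon 83, at 229, 258 and 505, and it was called in no other group.

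The highest scores of any keratin site were reached near the stop codon of Krt20, by cytosines 2 nt apart that were called in different groups. The cytosine at chr11:99429012, in codon 422, scored 631, 844 and 799 in the control and was called in no OGD/R library. The cytosine at chr11:99429014, in codon 421, scored 1000, 990 and 889 in OGD/R 1.5 h and was called in no other group. In OGD/R 3 h neither was called. The printed windows of these sites overlap in 19 of their 21 nt, so the difference is in which C of the same stretch was listed.

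**Figure D3:**
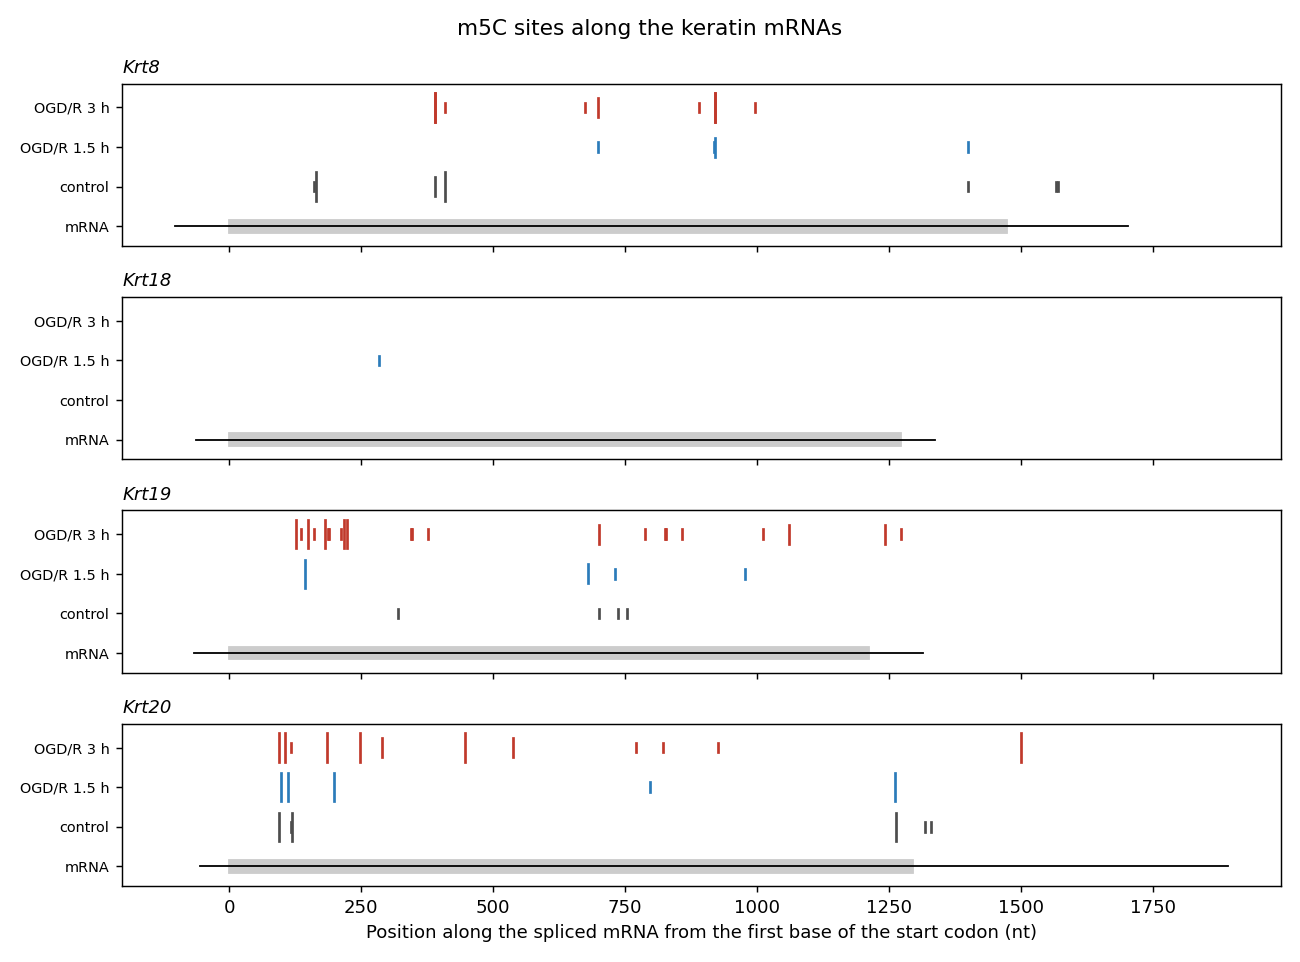
Position of each m5C site along the spliced keratin mRNAs, in nt from the first base of the start codon (horizontal axis), with 1 row for each group; the grey box is the coding sequence, the black line the whole mRNA, and the height of a tick shows whether 1, 2 or 3 libraries of the group called the site. Krt19 has 13 sites of OGD/R 3 h in exon 1, at the start of the coding sequence, against 1 in each other group. Krt20 has sites in exon 1 in every group, 3 in the control, 3 in OGD/R 1.5 h and 6 in OGD/R 3 h. Of the 67 sites, 7 have a tick in 2 groups.

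Sites were divided into 5 mRNA regions, with codon regions reaching 100 nt to either side of the start and the stop codon. Of the 67 keratin sites, 55 lay in the remaining CDS, 9 in the stop codon region, 2 in the start codon region and 1 in the rest of the 3′ UTR. The 5′ UTRs of these mRNAs are so short that no cytosine lay outside the start codon region. Per 1000 cytosines, the CDS held 48.6 sites, the stop codon region 47.4, the start codon region 8.03 and the 3′ UTR 6.99.

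The share of keratin sites in the CDS away from the codon regions differed between the groups, but this depended on where the regions end. It was 60.0% to 62.5% per library in the control, 66.7% to 80.0% in OGD/R 1.5 h and 86.2% to 90.9% in OGD/R 3 h, without overlap between any groups. The means were 60.8% ± 1.44, 72.2% ± 6.94 and 88.8% ± 2.39 (SD, n = 3 libraries). The same shares of all mRNA sites are not given here, so a shift particular to the keratins cannot be told from one of whole libraries. Beside this, 6 of the 17 control sites lay in the stop codon region, of which 3 were in Krt8 and 3 in Krt20, against 2 of the 43 sites of OGD/R 3 h. Of these control sites, that in codon 422 of Krt20 was called in all 3 control libraries and each other site in 1. A library's share rests on 6 to 29 sites, and with codon regions of 50 nt the shares were 70% to 87.5%, 83.3% to 90% and 89.7% to 95.5%, so that OGD/R 1.5 h overlapped both other groups and the difference between OGD/R 3 h and the control shrank from 28.0 to 16.8 percentage points. Counting the whole coding sequence, codon regions included, the shares were 80% to 100% in the control, 100% in OGD/R 1.5 h and 89.7% to 95.5% in OGD/R 3 h, and the control overlapped both. For sites called in all 3 libraries, OGD/R 1.5 h and the control did not differ in CDS share.

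The start of the coding sequence also differed in score. The limit of 250 nt used here was set after the scores had been seen. The 23 sites up to 250 nt after the start codon had a median score of 16.5 over 56 calls, and 60.7% of these calls scored below 20. The 44 sites farther downstream had a median of 92 over 77 calls and a lowest score of 29, so that none was below 20. For all mRNA sites the medians were 7 and 15, with 71.8% and 54.0% of calls below 20, so low scores near the start were common over all mRNAs too. The limit was chosen on the keratin scores, so the lack of low keratin scores downstream cannot set these genes apart from other mRNAs. A site called in several libraries counts once for each of them.

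**Figure D4:**
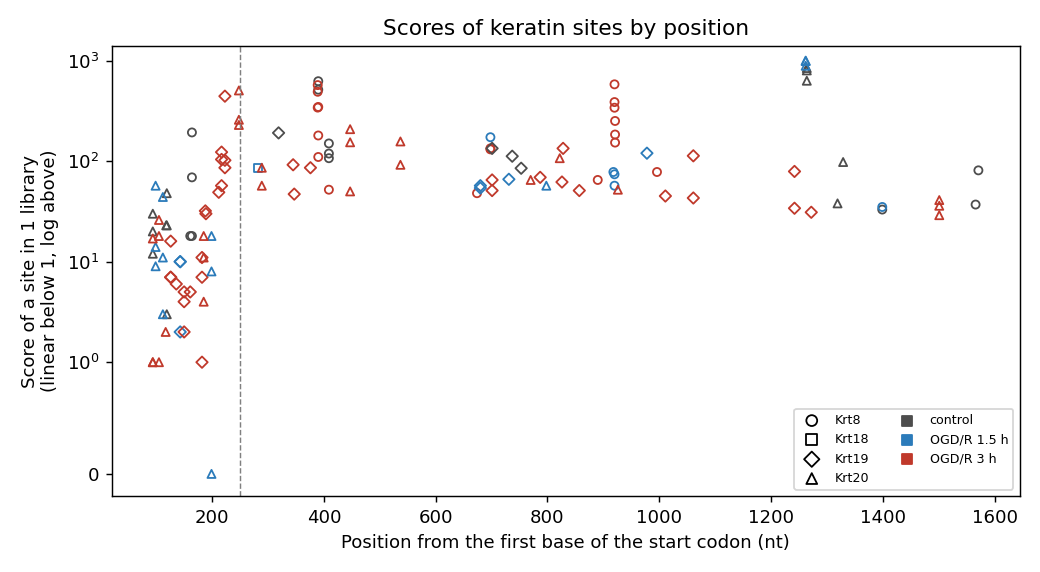
Score of each keratin site in each library that called it (vertical axis, linear below 1 and logarithmic above) by its position from the first base of the start codon in nt (horizontal axis); symbols mark genes, colours groups, and the dashed line lies at 250 nt. Scores below 20 occur only to the left of the line, which was placed after the scores had been seen. The calls near 1000 are those of the adjacent Krt20 sites at the stop codon.

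By library, the median score of keratin sites was 31.5 to 105 in the control, 12.5 to 57 in OGD/R 1.5 h and 57 to 63 in OGD/R 3 h. These ranges overlapped or touched, so the groups were not apart in score. Keratin sites scored above the bulk of mRNA sites, whose medians were 9 or 10 in the control, 7 in OGD/R 1.5 h and 11 or 12 in OGD/R 3 h.

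The sequence around the keratin sites was compared with all 1714 cytosines of the same 4 mRNAs. Sites stood in CG in 28.4% of cases against 14.2% of cytosines, in CHG in 37.3% against 28.9% and in CHH in 34.3% against 56.8%, where H is A, C or U. An A followed the called C in 5 of 67 sites, or 7.46%, against 30.3% of cytosines. A G stood 3 nt upstream in 43.3% of sites and 28.6% of cytosines. The motifs CNGGG and CTCCA, read on the mRNA strand from the called C, were found at 2 sites each, or 2.99%, against 2.63% and 1.23% of cytosines, and neither overlaps the other. In the coding sequence 19 sites were at codon position 1, 16 at position 2 and 25 at position 3, and at position 3 their share of 41.7% stood beside 45.8% of the cytosines.

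Per library, OGD/R 1.5 h had the lowest share of keratin sites in CG. The share was 30.0% to 37.5% per library in the control, 0% to 10.0% in OGD/R 1.5 h and 25% to 37.9% in OGD/R 3 h. CHH took 40% to 50% in OGD/R 1.5 h, above the 0% to 30.0% of the control and the 24.1% to 32.1% of OGD/R 3 h. With 6 to 10 sites in each OGD/R 1.5 h library, 1 site moves these shares by 10 percentage points or more. Over the distinct sites of a group, CHH took 29.4% in the control, 35.7% in OGD/R 1.5 h and 34.9% in OGD/R 3 h, and CG 29.4%, 14.3% and 30.2%. The context shares of all mRNA sites by group are not given here.

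Keratin sites were less crowded than other mRNA sites. In each library, 0% to 35.7% of keratin sites had another site within 10 nt, against 39.0% to 51.7% of all mRNA sites. The most crowded were the OGD/R 3 h libraries, at 27.3% to 35.7%.

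The members are paralogs, so the aligned positions of their coding sequences were compared. Krt18 and Krt19 shared 49.4% of aligned residues, Krt19 and Krt20 48.7%, Krt18 and Krt20 43.8%, and Krt8 29.2% to 35.0% with the type I keratins. In the alignment through the proteins, 1 pair of sites fell on the same codon position. It joined chr11:100145642 of Krt19, in codon 73, with chr11:99437898 of Krt20, in codon 67, both printed above. The Krt19 site was called in all 3 libraries of OGD/R 3 h and the Krt20 site in all 3 of OGD/R 1.5 h, at scores of 0, 8 and 18, and neither in any other group. Of the 24 Krt19 sites that could be aligned to Krt20, 8 met a cytosine there, and of the 13 aligned Krt20 sites 10 met a cytosine in Krt19, and the pair just named was the only one called in both genes. This rests on the alignment, since a nucleotide alignment lost the pair and gave 3 others, among them chr11:100145733 of Krt19 and chr11:99437980 of Krt20, called in 3 and 1 of the OGD/R 3 h libraries and in no other group.

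None of the other 49 keratin genes in the annotation had a site in any library, Krt13, Krt15 and Krt17 among them, which share short stretches of high identity with Krt19. Of 15 other intermediate filament genes, 5 had sites. The muscle filament gene Des had 2, 3 and 2 sites in the control, 1, 2 and 1 in OGD/R 1.5 h and 0 in OGD/R 3 h, and the lamin gene Lmna had 0 to 2 per library. Lmnb1, Synm and Vim had 1 site each, while the neurofilament genes Nefl, Nefm and Nefh and the astrocyte filament gene Gfap had none.

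Proteins that bind or anchor keratin filaments were represented by 19 genes, of which 11 had sites. The cytolinker gene Plec had 49 distinct sites, the desmosomal plaque gene Dsp 20, Pnn 10 and the plakophilin gene Pkp3 6. Plec had 5, 12 and 5 sites in the control, 9, 4 and 9 in OGD/R 1.5 h and 6, 6 and 10 in OGD/R 3 h, and the groups overlapped. Between OGD/R 3 h and the control, 2 of the 10 genes with a site in either group were higher in every library and 2 lower, beside 18.5% and 18.8% of all genes. These were the desmosomal genes Jup and Pkp4, each with 0 sites in every control library and 2 in every OGD/R 3 h library, and Pnn and Dst. Between OGD/R 1.5 h and the control 0 of 11 were higher and 2 lower, beside 8.57% and 15.2% of all genes, and between the OGD/R groups 3 of 8 were higher and 0 lower in OGD/R 3 h, beside 19.8% and 13.5%. Summed, these genes had 15 to 26 sites per control library and 18 to 22 in OGD/R 3 h, which overlap.

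The markers of the intestinal epithelium were set beside the keratins because both belong to epithelial cells. Their summed sites were 111 to 123 per control library, 66 to 78 in OGD/R 1.5 h and 213 to 229 in OGD/R 3 h, with 20, 16 and 23 of the 25 genes represented. Between OGD/R 3 h and the control 9 of the 24 markers with a site in either group were higher in every library and 4 lower, beside 18.5% and 18.8% of all genes. The mucus protein gene Fcgbp, with 124 distinct sites, had 12, 13 and 10 in the control, 12, 16 and 13 in OGD/R 1.5 h and 72, 69 and 66 in OGD/R 3 h. This gene made up a large part of the rise of the sum from the control to OGD/R 3 h. The brush border peptidase gene Anpep had 10, 13 and 16 sites in the control and 25, 14 and 22 in OGD/R 3 h, which overlap, and the apolipoprotein gene Apoa4 fell from 19, 24 and 19 to 13, 15 and 17. Between OGD/R 1.5 h and the control 1 of the 21 markers with a site in either group was higher and 8 were lower, beside 8.57% and 15.2% of all genes. The apolipoprotein gene Apoa1 fell from 22, 17 and 17 to 4, 5 and 5. Set against OGD/R 1.5 h, 14 of 24 markers were higher in every OGD/R 3 h library and 0 lower, beside 19.8% and 13.5% of all genes. The part of epithelial RNA in the keratin result was not tested.

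The number of sites per library was used to find the genes most like the keratins. Over the 9 libraries, among 488 genes with at least 10 distinct sites, the highest Pearson correlations of log2(sites + 1) with the summed keratin sites were those of Lars2 at 0.973, Itm2b at 0.967, Arf6 at 0.964, Tubb5 at 0.962 and H1f2 at 0.959. Lars2 encodes the mitochondrial leucyl-tRNA synthetase, Itm2b a membrane protein, Arf6 a small GTPase, Tubb5 a beta-tubulin and H1f2 a linker histone. The points are libraries that fall into 3 groups, so the values describe the pattern of the steps between groups and not their size. Lars2 had 33, 34 and 33 sites in the control, 34, 32 and 33 in OGD/R 1.5 h and 43 in every OGD/R 3 h library, a smaller relative step than that of the summed keratin sites. Among the members, Krt19 and Krt20 had a correlation of 0.911, Krt8 and Krt20 0.573 and Krt8 and Krt19 0.427. Arf6 had 4, 3 and 3 sites in the control, 5, 3 and 4 in OGD/R 1.5 h and 12, 12 and 13 in OGD/R 3 h, a wider step than that of Krt20.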

How the data were processed

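RNA-bisulfite libraries were sequenced by the authors, who named CASAVA 1.8, cutadapt 1.9.3, STAR and mm10 in their processing notes and called sites with meRanCall. The deposited lists give position, strand and a score per site, and the authors wrote the score as a whole number up to 1000 that rises with coverage and level. Levels and coverage were not used here. Sites were assigned by strand to exons of 21000 RefSeq protein-coding genes (NM_ transcripts of GRCm38.p6, the mm10 assembly), which hold no mitochondrial gene, with Python 3.11.15 and NumPy 2.4.6. A gene was called higher or lower when the libraries of the groups did not overlap. Codons were aligned through translated sequences with Biopython 1.88, and copies were searched with BLAST 2.17.0. The assignment and call rules were run on simulated sites, and the outcome is not given here. How often the call rule errs at site numbers as low as those of the keratins was not tested.

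The members, gene lists and rules were chosen with earlier results of these data known. Sites described by coordinates were chiefly the 3 per gene called in most libraries, with ties broken by the summed score, and sites called in all 3 libraries of a group. At most 4 genes per list were named by their number of sites, and further genes and sites were named after their values had been seen. The 5 most correlated genes were named. The alternatives were stricter site filters, shares in place of numbers, unions, left-out libraries, 50 nt codon regions, other alignments and, added after seeing the data, GENCODE M21 and the removal of sites with a copy.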

Additional observations from a re-analysis of the deposited data

How the results depend on the processing

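Keratin sites were more numerous in OGD/R 3 h than in the control and in OGD/R 1.5 h under all 14 alternatives of each comparison, whereas the sign of the small difference between OGD/R 1.5 h and the control changed with the setting. The log2 ratio of OGD/R 3 h to the control moved from 1.50 to 1.14 without sites that had a neighbour within 10 nt, to 1.19 as a share of mRNA sites and to 2.05 without sites that have a copy in mm10. It was 1.40 to 1.61 with a library left out. The ratio of OGD/R 3 h to OGD/R 1.5 h moved from 1.60 to 1.14 and 1.16 under the first 2 of these, and was 1.40 to 1.72 with a library left out. The ratio of OGD/R 1.5 h to the control moved from -0.11 to 0.42 without copied sites, and was -0.22 to 0.10 with a library left out. The difference in the CDS share between OGD/R 3 h and the control, 28.0 percentage points, was 16.8 with 50 nt codon regions. That between OGD/R 1.5 h and the control, 11.4 points, was 0 for sites called in all 3 libraries, and the CHH difference of 30.0 points became 60.0. Paralogs shared 1 position by codon, 4 within 3 nt and 3 by nucleotide alignment. The cause of these shifts was not tested.

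GENCODE M21 gave the same number of 67 keratin sites. The planned score for sites called in all 9 libraries could not be computed, since no keratin site was called in all. No paired analysis was possible because no result comes from a test and nothing ties equal replicate numbers to a shared culture. Without read depth, a missing call cannot be told from missing coverage.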
